A study of Canis lupus familiaris with 12 samples.

Results

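The 6 genes described here, SELP, VWF, THBD, PROCR, F5 and PLAUR, encode proteins of the vessel wall, of platelets and of leukocytes that start, restrain or clear a clot. They were chosen by name from earlier results on these samples, with their values in diseased and in control dogs in view, so every contrast between those groups is given for them as a description and not as a test. All 6 were found among the 24223 genes listed for each tissue. The authors tested all 6 in the mitral valve and 5 in the left ventricle; F5 was listed in the ventricle without a test.

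RNA was sequenced in 12 libraries from 8 dogs, of which 4 had degenerative mitral valve disease (DMVD), in which the leaflets thicken and leak. DMVD ventricle came from 2 dogs, a 5-year-old Jack Russell Terrier and a 9-year-old Pomeranian. Control ventricle came from 4 dogs, a Beagle aged 8 and 3 Hound mix dogs aged 3. DMVD valve came from 3 dogs, that Pomeranian and Beagles aged 17 and 16, and control valve from 3, the 8-year-old Beagle and 2 of the Hound mix dogs. No treatment is named in the labels for any group, and no DMVD dog shared both breed and age with a control dog, so disease, breed and age cannot be told apart. Each value is the authors' group value in FPKM (fragments scaled to gene length and library size), 1 per diagnosis and tissue, so the spread between dogs and the depth of each library are unknown.

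Resting endothelium keeps blood fluid, and its surface turns adhesive and less anticoagulant when it is injured or inflamed. P-selectin (SELP) and von Willebrand factor (VWF) are stored together in Weibel-Palade bodies of endothelial cells and in alpha granules of platelets, and reach the surface or the plasma on stimulation. Thrombomodulin (THBD) binds thrombin and redirects it to activate protein C, which the endothelial protein C receptor (PROCR) presents; activated protein C then cleaves factor V (F5), the cofactor of the enzyme that makes thrombin. The urokinase receptor (PLAUR) gathers plasminogen activation at the surface of leukocytes and endothelial cells.

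P-selectin was the member with the lowest ventricular level among those tested and had a high DMVD to control ratio in both tissues. SELP (ENSCAFG00000015180, chromosome 7, 28956362 to 28997731 on CanFam3.1 as the tables list it) stood at 0.173 FPKM in control and 1.48 FPKM in DMVD ventricle. In the valve it stood at 1.01 FPKM in control and 12.8 FPKM in DMVD. The DMVD value was thus 8.54-fold the control value in the ventricle and 12.7-fold in the valve, or log2 fold changes of 3.09 ± 0.67 and 3.67 ± 0.62. Here and below, ± gives a standard error (SE) worked back from the test statistic in the authors' deposited table. Because the ventricular control value is so low, adding 1 FPKM to both groups lowered that log2 fold change to 1.08. In bulk tissue, more cells that hold a transcript and more of it per cell cannot be told apart, and this holds for every gene below.

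VWF, which tethers platelets to exposed collagen and carries factor VIII, was the most abundant member in the ventricle. By the listed values it differed less between diseased and control dogs than SELP did in both tissues. In the ventricle that order reversed once 1 FPKM was added to each value, with 1.74 for VWF and 1.08 for SELP on the log2 scale. In the valve the order held after the same addition, at 1.29 for VWF and 2.78 for SELP. VWF (ENSCAFG00000015228, chromosome 27, 38834908 to 38972738) stood at 23.0 FPKM in control and 79.5 FPKM in DMVD ventricle, and at 15.0 and 38.1 FPKM in control and DMVD valve. These pairs are 3.45-fold (log2 1.79 ± 0.49) and 2.54-fold (log2 1.35 ± 0.73). In control ventricle VWF lay at the 87.3 percentile of genes listed above 0, and SELP at the 20.4 percentile. The level of VWF was 133 times that of SELP in control ventricle, 53.7 times in DMVD ventricle, 14.9 times in control valve and 2.98 times in DMVD valve. As listed, these cargo genes of the same storage granule were furthest apart in control ventricle and closest in DMVD valve. The ratio in control ventricle rests on SELP at 0.173 FPKM, so the order of the ventricular ratios depends on a value near the floor.

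The anticoagulant receptors THBD and PROCR were both higher in the DMVD valve, and in the ventricle THBD alone was. THBD (ENSCAFG00000005157, chromosome 24, 599772 to 601649) stood at 5.08 FPKM in control and 14.0 FPKM in DMVD ventricle, and at 4.14 and 20.9 FPKM in control and DMVD valve. The log2 fold changes were 1.46 ± 0.46 and 2.34 ± 0.54. PROCR (ENSCAFG00000007945, chromosome 24, 24184439 to 24187910) stood at 4.89 FPKM in control and 4.95 FPKM in DMVD ventricle, a log2 fold change of 0.02 ± 0.59. In the valve it stood at 12.6 FPKM in control and 55.9 FPKM in DMVD, 4.45-fold (log2 2.15 ± 0.55), and in DMVD valve it was the most abundant member. THBD and PROCR had about the same level in control ventricle, at a ratio of 1.04, and in DMVD ventricle THBD had 2.82 times the level of PROCR. In the valve PROCR was the more abundant in both groups, with a THBD to PROCR ratio of 0.330 in control and 0.374 in DMVD.

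F5, the substrate of activated protein C, was the least abundant member in all 4 groups. F5 (ENSCAFG00000015215, chromosome 7, 28999511 to 29069232) stood at 0.0332 FPKM in control and 0.0989 FPKM in DMVD ventricle, which the authors did not test. In the valve it stood at 0.118 FPKM in control and 1.18 FPKM in DMVD, 9.96-fold, a log2 fold change of 3.32 ± 0.83. With 1 FPKM added to both groups the valve value became 0.96 and the ventricular one, 1.58 as listed, became 0.09. Its listed locus also holds 1 unnamed gene (ENSCAFG00000027460), which is listed at 0 FPKM in every group.

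PLAUR differed most in the ventricle, where it had the highest ratio of the 6 genes, while in the valve VWF alone had a lower one. The urokinase receptor gene (ENSCAFG00000004730, chromosome 1, 111486388 to 111491034) stood at 1.19 FPKM in control and 20.6 FPKM in DMVD ventricle, 17.3-fold (log2 4.11 ± 0.60). In the valve it stood at 3.52 FPKM in control and 10.1 FPKM in DMVD, 2.87-fold (log2 1.52 ± 0.65). Of the 11629 genes of the ventricle that were tested and had a mean of at least 1 FPKM, 46 had a larger log2 fold change than PLAUR, whereas in the valve 449 of 13122 did.

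**Figure D1:**
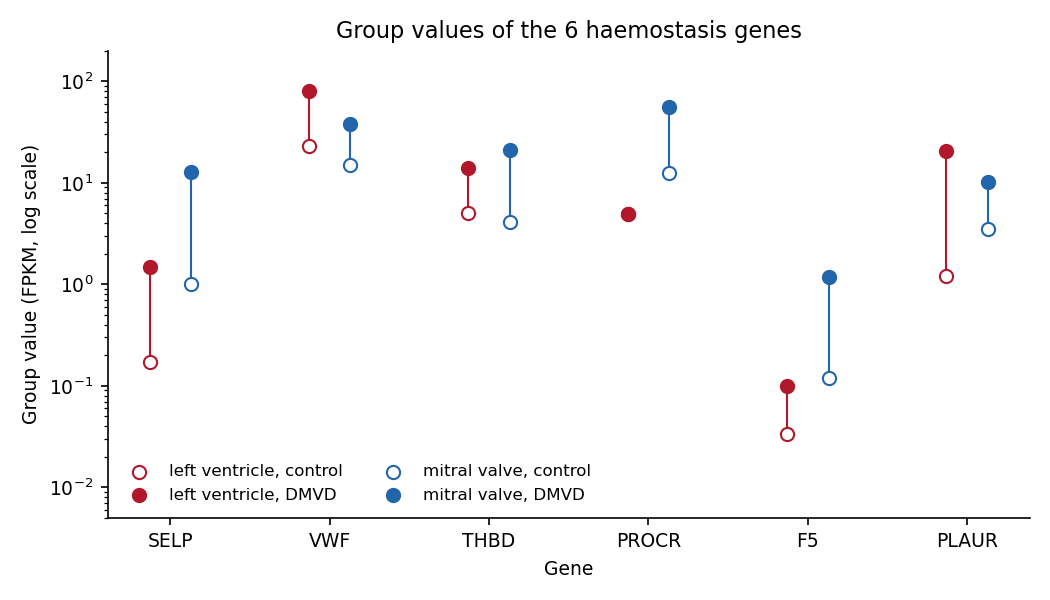
Group values of the 6 genes in FPKM on a log scale, in left ventricle (red) and mitral valve (blue), with open circles for control and filled circles for DMVD, joined by a line for each tissue. PROCR in the ventricle is the pair whose circles coincide, at 4.89 and 4.95 FPKM, and F5 lies lowest.

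A gene was called where the authors' p, adjusted by Benjamini-Hochberg over all genes tested in a tissue, was under 0.05. In the ventricle 1.92% of the 13788 tested genes were called higher in DMVD and 1.16% lower; in the valve 0.311% of 14810 were called higher and 0.108% lower. At an unadjusted p under 0.05, the looser count given for lists and neighbours, 11.3% of all tested genes passed in the ventricle and 4.20% in the valve. Of the 6 genes, PLAUR, SELP, VWF and THBD were among those called higher in the ventricle, and SELP, THBD, PROCR and F5 among those called higher in the valve. None was called lower in either tissue. These counts describe the choice of genes, which were picked with the same contrasts known. VWF and PLAUR had a valve value above control that was not called, and the ventricular values of PROCR differed by less than their SE of 0.59, which does not show that they were equal. The difference of the tissues' effects, valve minus ventricle on the log2 scale, was 2.14 for PROCR, 1.74 for F5, 0.88 for THBD, 0.58 for SELP, -0.44 for VWF and -2.59 for PLAUR. It was not tested, since both contrasts chose the genes, and 4 of the 8 dogs gave samples to both tissues. For F5 and SELP the difference depends on low values. With 1 FPKM added to both groups, F5 had 0.09 in the ventricle and 0.96 in the valve, and SELP had 1.08 and 2.78.

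**Figure D2:**
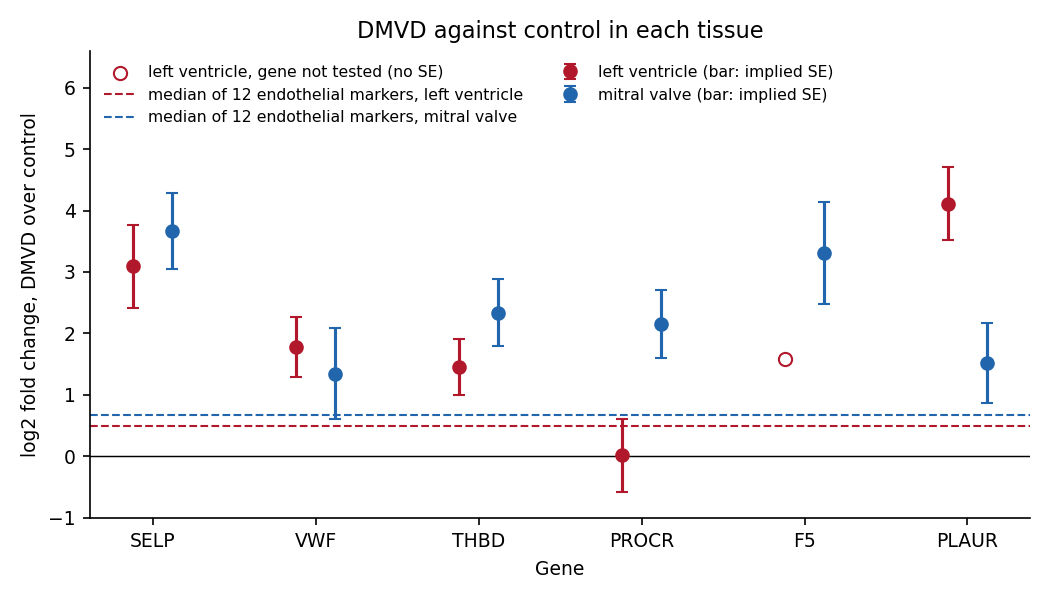
Log2 fold change of DMVD over control for each gene in left ventricle (red) and mitral valve (blue), with bars of 1 implied SE; the open circle is F5 in the ventricle, which has no SE. Dashed lines mark the median of 12 endothelial markers, 0.50 in the ventricle and 0.67 in the valve; PROCR in the ventricle is the only point below its line.

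The order of the levels across the groups differed from gene to gene. SELP, PROCR, F5 and THBD were highest in DMVD valve, and VWF and PLAUR in DMVD ventricle. Control ventricle was lowest for SELP, PROCR, F5 and PLAUR, while control valve was lowest for VWF and THBD. Whether the tissues' tables were normalised together is not stated, and the 11498 genes above 1 FPKM in both control groups had a median log2 ratio of valve to ventricle of 0.31. Relative to that shift, the control valve exceeded the control ventricle by 2.22 on the log2 scale for SELP, 1.52 for F5, 1.24 for PLAUR and 1.05 for PROCR. VWF had -0.93 and THBD -0.61. These ratios have no error, since each rests on 1 group value per tissue. Those of SELP and F5 also rest on low values, 0.173 and 0.0332 FPKM in control ventricle, below the genes that gave the shift.

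SELP and F5 lie next to each other on chromosome 7, with 1780 bases between their listed loci, and near them lies E-selectin (SELE), an adhesion receptor made by cytokine-stimulated endothelium. Position was not used to choose the genes. SELE stood at 0.106 FPKM in control and 1.06 FPKM in DMVD ventricle, had 3.31 ± 1.08 on the log2 scale and did not pass (Benjamini-Hochberg adjusted p = 0.0612, from the authors' p). Its valve values were 0.0908 FPKM in control and 1.34 FPKM in DMVD; it had 3.88 ± 1.60 there and did not pass either.

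Of 9 other genes examined that start within 250 kb of SELP, SELE included and all tested in both tissues, 0 were called in either, with 1 in each tissue at an unadjusted p under 0.05, which 11.3% and 4.20% of all tested genes passed. Their median log2 fold change was -0.03 in the ventricle and 0.08 in the valve, and the nearest on the far side of F5, the thiamine transporter SLC19A2, had 0.09 ± 0.42 and -0.45 ± 0.50. The loci of BLZF1, NME7 and ATP1B1, among these 9, are listed as 1 and the same interval. The other 4 members had no called neighbour within the same distance: 0 of 5 tested neighbours of VWF and 0 of 1 of THBD in either tissue, 0 of 7 and 0 of 8 of PROCR in ventricle and valve, and 0 of 11 and 0 of 10 of PLAUR. At an unadjusted p under 0.05 there was 1 neighbour of PROCR in each tissue, 1 of PLAUR in the valve, and 0 of VWF and THBD. The single named neighbour of THBD was CD93, another receptor of endothelial cells, with -0.91 ± 0.47 in the ventricle and -0.08 ± 0.66 in the valve.

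**Figure D3:**
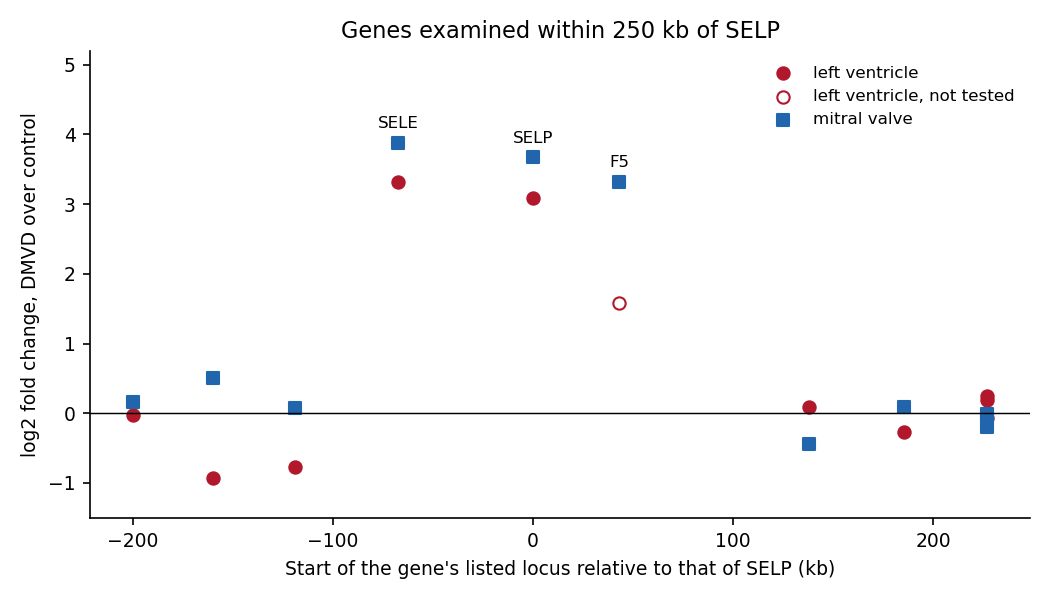
Log2 fold change of DMVD over control against the start of each listed locus relative to SELP in kb, for the genes examined within 250 kb; red circles are the left ventricle, blue squares the mitral valve, and the open circle is F5 in the ventricle, not tested. SELE, SELP and F5 stand between 1.58 and 3.88, and the other genes drawn lie between -0.93 and 0.51.

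The other genes of haemostasis were taken from 7 lists of coagulation factors, anticoagulants, the plasminogen system, platelet genes, platelet-controlling receptors, Weibel-Palade body genes and adhesion molecules. Of their 93 symbols 75 matched the tables, and 46 were tested in the ventricle and 51 in the valve. In the ventricle 3 rose, 1 fell and the rest did not pass, where 1.92% of all tested genes were called higher and 1.16% lower. The median log2 fold change there was 0.17 against -0.04 for all tested genes. An unadjusted p under 0.05 was found for 11, 8 of them higher in DMVD, against 11.3% of all tested genes. In the valve 0 passed in either direction, where 0.311% of all tested genes were called higher and 0.108% lower. At those shares, 0 of 51 does not show an absence of change. There 10 had an unadjusted p under 0.05, 9 of them higher in DMVD, against 4.20% of all tested genes. The valve median was 0.51 against 0.05 for all tested genes.

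Of the coagulation factors, most of them made by the liver, 2 were tested in the ventricle and 4 in the valve, with 0 called (0 and 1 at an unadjusted p under 0.05). Factor XIII subunit A (F13A1), which cross-links fibrin and is made by macrophages and platelets, had 0.73 ± 0.42 in the ventricle and 1.56 ± 0.50 in the valve, where it stood at 5.89 FPKM in control and 17.3 FPKM in DMVD. Factor VIII (F8), the partner of VWF in plasma, had 0.81 ± 0.46 and 0.83 ± 0.70. Among the anticoagulant proteins 4 were tested in each tissue and 0 were called (0 and 1 at an unadjusted p under 0.05). Protein S (PROS1), the cofactor of activated protein C, stood at 1.57 and 1.82 FPKM in control and DMVD ventricle and at 10.8 and 20.7 FPKM in control and DMVD valve, with 0.21 ± 0.46 and 0.94 ± 0.51. The protease inhibitor TFPI2 had 0.78 ± 0.72 in the ventricle and 2.27 ± 0.83 in the valve. Protein C itself (PROC) was at 0.0252 FPKM or below in every group.

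In the plasminogen system 1 of 5 tested genes rose in the ventricle and 0 of 4 were called in the valve (1 at an unadjusted p under 0.05). SERPINE2, a cell-bound inhibitor of thrombin and urokinase, stood at 2.25 FPKM in control and 13.5 FPKM in DMVD ventricle and rose by 2.59 ± 0.47 (Benjamini-Hochberg adjusted p = 6.15e-06, from the authors' p). In the valve it stood at 97.7 and 231 FPKM, with 1.24 ± 0.78. Annexin A2 (ANXA2), a surface receptor for plasminogen and its activator, had 1.03 ± 0.44 in the ventricle and 0.65 ± 0.60 in the valve, and SERPINB2, an inhibitor of urokinase, had 0.15 ± 0.42 and -1.17 ± 0.50.

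Of the genes that set how platelets respond, 9 were tested in each tissue; in the ventricle 1 rose and 1 fell, and in the valve 0 were called (3 at an unadjusted p under 0.05). The prostacyclin receptor PTGIR rose in the ventricle by 1.93 ± 0.58, with 0.532 FPKM in control and 2.03 FPKM in DMVD (Benjamini-Hochberg adjusted p = 0.0348, from the authors' p). There the ADP receptor P2RY1 fell by 1.68 ± 0.53 on the log2 scale, with 11.7 FPKM in control and 3.63 FPKM in DMVD (Benjamini-Hochberg adjusted p = 0.0473, from the authors' p). Centred on the median of tested genes that averaged 1 FPKM or more, P2RY1 had -1.66 and was no longer called (Benjamini-Hochberg adjusted p = 0.0525, from the authors' statistics). In the valve PTGIR and P2RY1 had 0.68 ± 0.58 and 0.03 ± 0.57. The thrombin receptor F2R had 1.08 ± 0.47 in the ventricle and stood at 10.8 and 21.6 FPKM in control and DMVD valve. Prostacyclin synthase PTGIS had 0.42 ± 0.42 and 1.52 ± 0.52, and neither F2R nor PTGIS passed in either tissue.

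Of the Weibel-Palade body genes other than SELP and VWF, 0 of 13 tested were called in either tissue. Their median was -0.34 in the ventricle and 0.16 in the valve. Of all tested genes, 1.92% were called higher and 1.16% lower in the ventricle, and 0.311% and 0.108% in the valve. At those shares, 0 of 13 does not set this list apart from other genes. The cargo gene ANGPT2, which destabilises vessels, had 1.39 ± 0.61 in the ventricle and 0.16 ± 0.91 in the valve, and the granule membrane protein CD63, expressed by many cell types, had 0.55 ± 0.45 and 0.22 ± 0.55. At an unadjusted p under 0.05 the Weibel-Palade list held 2 genes in the ventricle and 0 in the valve, against 11.3% and 4.20% of all tested genes. ADAMTS13, the protease that trims VWF multimers, was at 0.201 FPKM or below in all groups and was not tested.

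Of the adhesion genes 1 of 6 tested rose in the ventricle, ICAM1, and 0 of 7 were called in the valve (2 at an unadjusted p under 0.05). ICAM1, the endothelial ligand of leukocyte integrins, stood at 1.98 FPKM in control and 10.4 FPKM in DMVD ventricle and rose by 2.38 ± 0.47 (Benjamini-Hochberg adjusted p = 6.78e-05, from the authors' p). In the valve it stood at 7.05 and 22.4 FPKM, with 1.67 ± 0.47 (Benjamini-Hochberg adjusted p = 0.0715, from the authors' p). VCAM1, its counterpart for other integrins, had 0.19 ± 0.42 in the ventricle and 0.99 ± 0.57 in the valve.

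**Figure D4:**
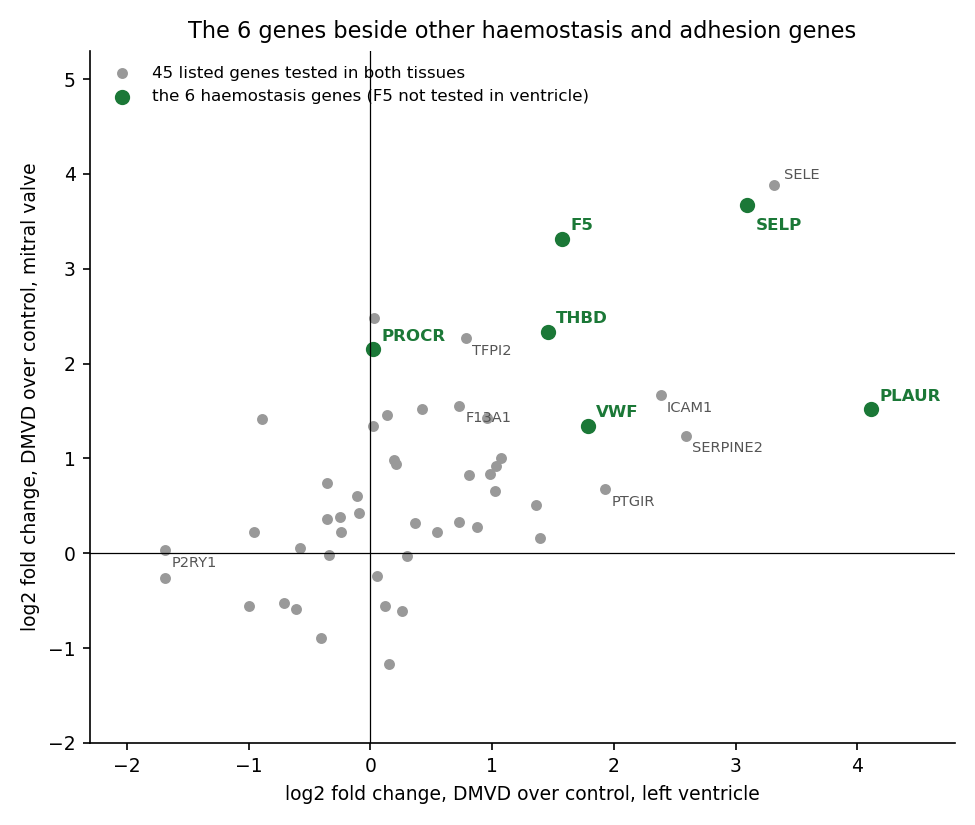
Log2 fold change of DMVD over control in left ventricle (x axis) and mitral valve (y axis) for 45 listed haemostasis and adhesion genes tested in both tissues (grey) and for the 6 chosen genes (green, F5 not tested in the ventricle). PROCR lies on the vertical zero line at 2.15 in the valve, PLAUR lies farthest right at 4.11, and SELE lies beside SELP.

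Because these genes are expressed by several cell types, markers of those cells are given beside them. Of 12 endothelial markers tested in each tissue, 2 rose in the ventricle, SOX17 by 2.28 ± 0.47 and ROBO4 by 1.68 ± 0.43. In the valve 1 rose, EMCN by 2.37 ± 0.53, and in both tissues the rest did not pass. At an unadjusted p under 0.05 there were 4 in each tissue, against 11.3% and 4.20% of all tested genes. In the ventricle 11 of the 12 markers had a log2 fold change above 0, and in the valve all 12. Their summed level was 167 FPKM in control and 241 FPKM in DMVD ventricle, and 126 and 242 FPKM in control and DMVD valve, with medians of 0.50 and 0.67. Of these 12, none had a larger log2 fold change than SELP in either tissue, and 1 exceeded VWF in the ventricle and 4 in the valve. THBD was exceeded by 2 and by 1, and PROCR by 11 in the ventricle and by 1 in the valve. The 6 genes were chosen with these contrasts known, so their ranks among the markers describe that choice. CDH5, the junctional cadherin of endothelium, had 0.21 ± 0.48 and 0.45 ± 0.53.

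Of the platelet and megakaryocyte genes, 0 of 7 tested in the ventricle and 0 of 10 in the valve were called, with 1 and 2 at an unadjusted p under 0.05. Their medians were 0.02 and 0.66. The summed level was 69.8 and 82.5 FPKM in control and DMVD ventricle, of which TUBB1 alone made 59.2 and 70.8 FPKM, and 50.3 and 50.7 FPKM in control and DMVD valve. The near-equal valve sums hide opposite directions: TUBB1 was at 33.5 FPKM in control and 21.9 FPKM in DMVD, the other genes together at 16.8 and 28.8 FPKM, and 9 of the 10 tested genes had a log2 fold change above 0. PPBP, a chemokine of platelet granules, was at 0.215 and 0.490 FPKM in control and DMVD ventricle and at 0.396 and 2.40 FPKM in control and DMVD valve, where it had 2.60 ± 0.81 and did not pass. The integrin subunit ITGA2B reached 0.933 FPKM at most, in DMVD valve. In control ventricle ITGA2B was at 0.114 FPKM, where TUBB1 was at 59.2 FPKM. PEAR1 alone made 7.78 and 10.4 FPKM of the other genes' sums in control and DMVD valve. How far TUBB1 or these sums follow platelet content was not tested.

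Among leukocyte markers, all 5 tested neutrophil markers rose in the ventricle, with a median of 4.65 and a summed level of 14.2 FPKM in control and 378 FPKM in DMVD; CSF3R, the receptor of granulocyte colony-stimulating factor, stood at 0.197 and 2.08 FPKM. In the valve 1 of 4 rose, S100A9, and the summed level was 8.65 and 43.6 FPKM. The chemokine receptor CXCR2, not tested in either tissue, was listed at 0 in control valve and at 0.303 FPKM in DMVD valve. Of 5 macrophage and monocyte markers 1 rose in the ventricle, FCGR1A, and 0 of 5 in the valve (2 at an unadjusted p under 0.05), with medians of 0.87 and 1.36 and summed levels of 9.83 and 27.2 FPKM in the ventricle and 17.0 and 49.7 FPKM in the valve. The alpha-globin gene HBA stood at 61.3 and 3559 FPKM in control and DMVD ventricle and at 34.4 and 604 FPKM in the valve; 4 of 5 tested erythroid genes rose in the ventricle and 1 of 4 in the valve. PLAUR was exceeded by 4 of the 5 neutrophil markers in the ventricle and by 4 of 4 in the valve. SELP, VWF, THBD, PROCR and the untested F5 were each exceeded by 5 of 5 in the ventricle. In the valve VWF was exceeded by 4 of 4, THBD, PROCR and F5 by 3 and SELP by 0. Of the macrophage and monocyte markers, 0 of 5 exceeded PLAUR in the ventricle and 2 of 5 in the valve. These ranks describe genes chosen with the contrasts known. The part of blood, platelets or leukocytes in the values of the 6 genes was not tested.

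**Figure D5:**
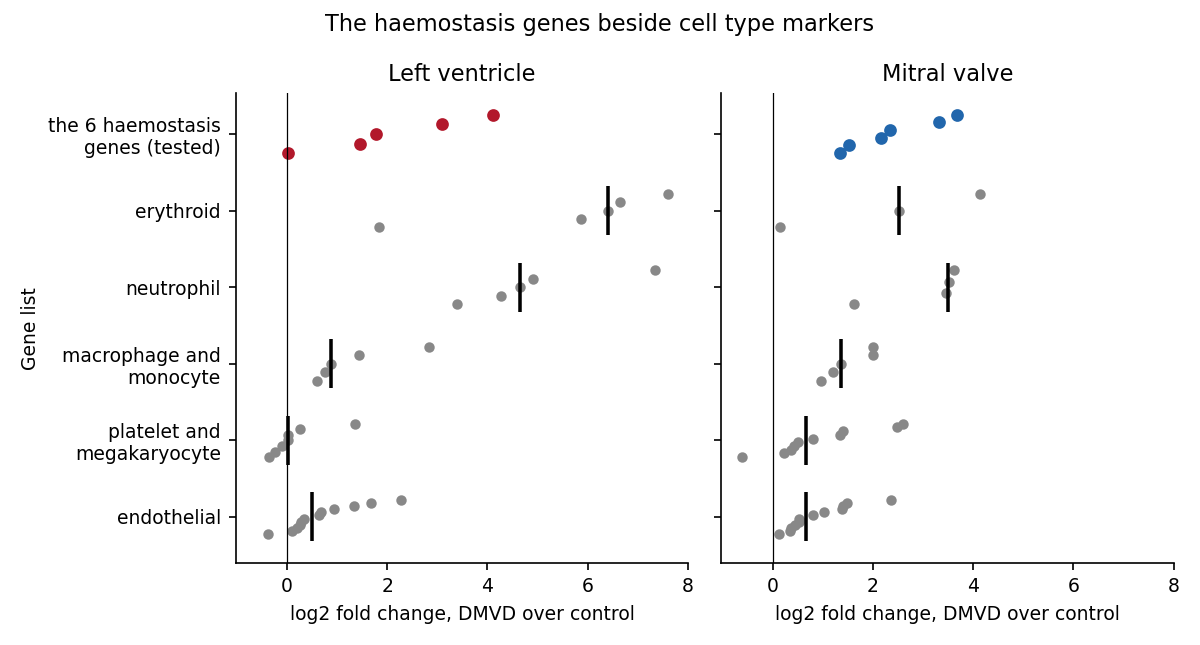
Log2 fold changes of DMVD over control for tested members of 5 marker lists (grey points, black bars for the medians) and for the tested haemostasis genes (coloured), in left ventricle and mitral valve; HBM, listed at 0 in control valve, has no fold change and is not drawn. Neutrophil medians are 4.65 and 3.49, against 0.50 and 0.67 for endothelial markers.

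Markers of heart muscle and of matrix-forming cells were present in both tissues. The troponin gene TNNT2 stood at 7051 FPKM in control ventricle and also at 4523 FPKM in control valve, and decorin (DCN), a matrix proteoglycan, at 274 and 1011 FPKM. Of 5 fibroblast and valve interstitial markers tested in each tissue, 1 rose in the ventricle, the matrix gene POSTN by 3.64 ± 0.99, with 0.453 FPKM in control and 5.63 FPKM in DMVD, and 0 were called in the valve (0 at an unadjusted p under 0.05), with medians of 0.18 and 0.29. POSTN stood at 245 and 685 FPKM in control and DMVD valve, with 1.49 ± 2.52. Of 6 smooth muscle markers 0 were called in either tissue, with 2 in each at an unadjusted p under 0.05 and medians of 0.0034 and 0.86; the contractile gene ACTA2 had 0.13 ± 0.43 and 1.24 ± 0.54. In the ventricle 0 of 6 tested cardiomyocyte markers were called (0 at an unadjusted p under 0.05), with a median of -0.34. The ventricular light chain MYL3 was at 1335 FPKM in control valve and 36.6 FPKM in DMVD valve, a fall that passed; the other 6 cardiomyocyte markers tested in the valve did not, and the median of the 7 was -1.26. The part of muscle or matrix cell content in the values of the 6 genes was not tested. Of 10 transcription factors of endothelium and inflammation 1 rose in the ventricle, JUNB by 2.60 ± 0.45, and 0 were called in the valve (2 at an unadjusted p under 0.05), with medians of 0.25 and 0.63.

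For each gene the 2 genes with the closest pair of log2 fold changes, in ventricle and valve, were taken from 8844 named genes tested in both tissues with a mean of at least 1 FPKM in each; the distance is in log2 units over these 2 contrasts and describes the group values alone. Nearest to PLAUR was the matricellular gene THBS1 (distance 0.04, with 4.15 in the ventricle and 1.52 in the valve), followed by the monocyte attractant CCL2 (0.22). Nearest to VWF was the transcription factor KLF4 (0.05, with 1.76 and 1.30), then LRRC8C. THBD had the endothelial sialomucin EMCN nearest (0.13, with 1.33 and 2.37), then RIIAD1. F5 had the chemokine CCL13 (0.17) and IGSF6 (0.65), PROCR had KCNMB1 (0.22) and MPEG1 (0.37), and SELP had IL1RL1 (0.51) and DDIT4 (0.68). F5 itself was not tested in the ventricle, where its log2 fold change of 1.58 came from 0.0332 and 0.0989 FPKM. With 1 FPKM added that value became 0.09, so the nearest genes of F5 rest on a value near the floor. The same limit holds for SELP, whose ventricular value became 1.08 with 1 FPKM added. SELE, with 3.31 in the ventricle and 3.88 in the valve, averaged under 1 FPKM and was not among the 8844 genes.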

How the data were processed

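RNA of dog left ventricle and mitral valve was sequenced; groups, breeds and ages came from the labels. The submitters' processing notes name cutadapt, Bowtie, TopHat and CanFam3.1; no source used here names the program behind the tables. Per the file headers, the authors deposited 1 table for each tissue, holding group values (read from the layout as FPKM), a log2 fold change of control over DMVD, a test statistic (a score) and an unadjusted p-value. Fold changes were recomputed here as DMVD over control. Each deposited p matched a two-sided normal p of its statistic to within 2.84e-06, so the size of the fold change over that statistic was used as SE: a model error of the authors' test, without an n.

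Benjamini-Hochberg adjustment ran over all genes tested in a tissue. Its arithmetic was checked on values simulated with independent normal error of the implied SE. Such a check cannot show whether the authors' p are well calibrated. Software was Python 3.11.15 (with numpy 2.4.6), pandas 2.3.3, matplotlib 3.10.9 and scipy 1.17.1. Library depths are unknown. The members, lists and rules were chosen with earlier results of these data known. The 15 lists held 179 symbols, of which 135 matched the tables; 14 UniProt entry names were translated. Named were the members, neighbours starting within 250 kb, the 2 genes nearest in fold changes, up to 3 genes a list and tissue with the smallest p at a mean of at least 1 FPKM, and haemostasis genes of known role. CDH5, DCN and CXCR2 were named after their values were seen. The sources do not say whether locus starts count from 0 or 1. Tissue effects were compared as their difference over the root of summed squared SEs, over 13099 genes. Alternatives were pseudocounts, centring, equal upper quartiles, a low-value filter, Benjamini-Yekutieli and a threshold of 0.01. Promoter and protein sequences were not analysed here, and some listed or neighbouring genes are not reported here.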

Additional observations from a re-analysis of the deposited data

Results flagged for a closer look

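Of 96 listed genes with an SE in both tissues, the members left out, 1 had DMVD effects that differed between the tissues after Benjamini-Hochberg adjustment over 13099 genes. Among all 13099 genes, 14 did. The ventricular myosin light chain MYL3 had -0.07 ± 0.67 in the ventricle and -5.19 ± 0.68 in the valve, a difference, valve minus ventricle, of -5.12 ± 0.96 (adjusted p = 0.000369, two-sided normal, on SEs from the authors' statistics). The test treats the tissues as independent, although 4 dogs gave both.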

How the results depend on the processing

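Adding 1 FPKM to both groups moved 5 of the members' log2 fold changes by more than their SE or, for F5 in the ventricle, by more than the median SE of low genes: SELP to 1.08 in the ventricle and 2.78 in the valve, PLAUR to 3.30 and F5 to 0.089 in the ventricle, and F5 to 0.96 in the valve. With 0.1 FPKM added, F5 in the ventricle had 0.58. The other 42 values under a pseudocount, centring or an equal upper quartile moved by less. Under Benjamini-Yekutieli adjustment 221 genes were called in the ventricle and 15 in the valve, and at a threshold of 0.01 259 and 30, against 425 and 62. Of the members, 2 were then called in the ventricle under either (PLAUR and SELP), and 1 (SELP) and 2 (SELP and THBD) in the valve, so VWF and THBD in the ventricle and PROCR and F5 in the valve passed neither. With genes under a mean of 1 FPKM left out, SELP in the ventricle and F5 in the valve were not tested, and 3 members were called in each tissue. Of the haemostasis lists 2 genes were called in the ventricle under either, ICAM1 and SERPINE2, without PTGIR and P2RY1. Of the endothelial markers 1 was called in the ventricle and 0 in the valve under Benjamini-Yekutieli.

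No paired analysis was possible because the tables hold 1 value per group, and leaving out a library was not possible for the same reason: whether a single dog carries a value, above all among the 2 DMVD ventricle dogs, cannot be seen. Low genes such as F5 rest on few reads of unknown number.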
